A study of Mus musculus with 16 samples.

Results

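The genes described here are 42 interferon-stimulated genes, read in macrophages of injured and normal mouse muscle. They were taken by symbol from a table of 24421 gene symbols, and they comprise antiviral effectors, sensors of foreign nucleic acid, interferon-inducible GTPases and 4 STAT and IRF factors. All 42 were in the table, and all 42 passed the filter on low counts that left 13649 genes for testing. The members were chosen by name from known biology, with earlier results of these data in view, so their counts describe the data and are no independent evidence.

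Macrophages were sorted from muscle as F4/80+ cells, their RNA was amplified as full-length cDNA without strand information, and 16 libraries were sequenced. The 4 groups, of 4 libraries each, were Glud1-deficient cells (KO) of CTX-injected muscle, WT cells of CTX-injected muscle, KO cells of normal muscle and WT cells of normal muscle. Injected muscle was sampled when damage was greatest, and the study addressed how loss of Glud1, the mitochondrial glutamate dehydrogenase, bears on macrophages at rest and in damaged muscle. The sources used here give neither the allele, a Cre driver or the strain, nor the age and number of the mice or the day of sampling. Whether each library stands for its own mouse is not labelled, so the tests rest on the variation among libraries, which may be technical.

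Interferons of type I, such as interferon beta, bind the receptor made of Ifnar1 and Ifnar2, and the kinases Jak1 and Tyk2 then become active. A complex that holds STAT2 and IRF9 then binds the interferon-stimulated response element (ISRE) and switches on antiviral genes. Interferon gamma signals through Ifngr1 and Ifngr2, many of its target genes carry gamma-activated sites (GAS), and it is the stronger inducer of GBP and immunity-related GTPases. Macrophages make, sense and answer interferons, and keep a low interferon-dependent expression of many of these genes in healthy tissue.

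Promoter sequences show what many members share beside their names. RefSeq promoters of GRCm38.p6, each from 250 bases before to 50 bases after a transcript start, were found for 31 of the 42 members, as 38 promoters. The ISRE core was searched as GAAA, any 2 bases and GAAA, and GAS as TTC, any 3 bases and GAA, both on either strand with overlapping matches allowed. At least 1 ISRE core lay in the promoters of 18 of the 31 members (58.1%), against 3.99% of 27025 genes with a promoter in the table. GAS letters lay in 9 of the 31 members (29%), against 9.55% of all genes. A match is a description, not a site or a cause. The 6 promoters below are those of 4 antiviral effectors that varied between libraries or with injury, of Gbp3, which fell with injury and holds overlapping ISRE cores, and of Irf1, which holds GAS letters and no ISRE core. They lie at chr19:34640639-34640938 (plus strand, Ifit1), chr4:156200769-156201068 (minus strand, Isg15), chr12:26456403-26456702 (minus strand, Rsad2), chr5:120907476-120907775 (minus strand, Oas1a), chr3:142559794-142560093 (plus strand, Gbp3) and chr11:53769764-53770063 (plus strand, Irf1). Each is written along its transcript, with ISRE cores and GAS letters in capitals.
Ifit1: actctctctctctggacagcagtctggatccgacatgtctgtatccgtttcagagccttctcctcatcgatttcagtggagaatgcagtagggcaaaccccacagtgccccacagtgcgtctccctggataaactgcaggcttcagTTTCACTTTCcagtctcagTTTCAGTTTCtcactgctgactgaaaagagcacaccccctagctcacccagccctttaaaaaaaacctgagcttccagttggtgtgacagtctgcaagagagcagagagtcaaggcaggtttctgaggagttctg
Isg15: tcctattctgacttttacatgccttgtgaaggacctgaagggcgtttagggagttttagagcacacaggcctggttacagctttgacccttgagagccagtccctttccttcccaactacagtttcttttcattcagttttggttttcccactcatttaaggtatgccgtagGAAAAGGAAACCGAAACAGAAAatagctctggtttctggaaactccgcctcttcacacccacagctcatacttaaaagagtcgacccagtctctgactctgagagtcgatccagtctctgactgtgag
Rsad2: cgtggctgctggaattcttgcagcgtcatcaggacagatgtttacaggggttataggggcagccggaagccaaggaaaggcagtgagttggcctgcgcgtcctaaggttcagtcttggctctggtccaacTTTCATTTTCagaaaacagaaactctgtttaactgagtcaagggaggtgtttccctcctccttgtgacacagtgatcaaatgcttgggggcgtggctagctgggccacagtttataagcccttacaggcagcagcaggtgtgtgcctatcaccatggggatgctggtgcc
Oas1a: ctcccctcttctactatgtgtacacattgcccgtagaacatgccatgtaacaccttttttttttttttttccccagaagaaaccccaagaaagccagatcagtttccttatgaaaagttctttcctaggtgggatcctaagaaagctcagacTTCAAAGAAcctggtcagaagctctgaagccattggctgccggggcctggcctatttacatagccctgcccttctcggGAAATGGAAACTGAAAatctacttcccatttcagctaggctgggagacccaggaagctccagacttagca
Gbp3: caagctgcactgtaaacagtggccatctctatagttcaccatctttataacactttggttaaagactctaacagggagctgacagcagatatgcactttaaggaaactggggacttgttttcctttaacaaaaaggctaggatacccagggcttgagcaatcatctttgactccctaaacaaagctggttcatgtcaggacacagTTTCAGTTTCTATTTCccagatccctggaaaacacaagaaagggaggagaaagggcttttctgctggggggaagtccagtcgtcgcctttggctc
Irf1: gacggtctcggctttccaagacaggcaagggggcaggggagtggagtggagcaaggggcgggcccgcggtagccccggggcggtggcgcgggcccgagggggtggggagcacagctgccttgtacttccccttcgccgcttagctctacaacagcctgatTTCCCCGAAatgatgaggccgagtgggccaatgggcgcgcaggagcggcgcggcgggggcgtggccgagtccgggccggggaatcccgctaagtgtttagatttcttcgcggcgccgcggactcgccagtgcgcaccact

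Library totals were 21222870 to 22230960 counts in KO CTX, 19842999 to 23097420 in WT CTX, 17051892 to 22521092 in KO normal and 19352958 to 21903563 in WT normal libraries. Values below are read counts normalised to library size with TMM factors (CPM), listed for libraries 1 to 4 in CTX groups, 1, 2, 3 and 5 in KO normal and 2, 3, 5 and 6 in WT normal. Glud1 itself had 327, 334, 351 and 342 CPM in KO CTX, 391, 386, 348 and 366 CPM in WT CTX, 240, 238, 272 and 210 CPM in KO normal and 258, 292, 252 and 218 CPM in WT normal libraries. It did not separate the genotypes at the threshold (log2 fold change KO over WT -0.14 in CTX-injected and -0.09 in normal muscle, edgeR adjusted p = 0.936 and 0.991), so KO and WT below mean libraries labelled KO and WT. Which exons were removed is not stated in the labels, and a count over all exons cannot check a deletion of some of them. The macrophage genes Adgre1, which encodes F4/80, and Csf1r were at 509 CPM or more and 1570 CPM or more in every library. Xist, the transcript of the inactive X chromosome, stood at 207 CPM in KO normal library 5 and 88.9 and 175 CPM in WT normal libraries 5 and 6, and at 0.128 CPM or less in the other 13 libraries.

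WT CTX libraries 1 and 2 stood apart from WT CTX libraries 3 and 4 in these genes. The CPM of the 42 members summed to 4652, 4720, 3885 and 3821 in KO CTX, to 1598, 1483, 5426 and 3673 in WT CTX, to 2955, 2427, 2091 and 2764 in KO normal and to 2134, 2606, 2637 and 3245 in WT normal libraries. WT CTX libraries 1 and 2 therefore had the lowest sums of all 16, and library 3 the highest. Libraries 3 and 4 were both above libraries 1 and 2 in 41 of 42 members, the exception being Iigp1. No share over all genes is given for this order alone. The gap was at least 2-fold in 25 members, against 2.14% of all 13649 genes, and 2.66% of genes were at least 2-fold lower in libraries 3 and 4. Both shares over all genes also count genes at 0 CPM on both sides, such as Ifng, and so are upper limits. The median SD of log2 CPM over the members was 0.18 in KO CTX libraries and 0.98 in WT CTX libraries, against 0.17 and 0.21 over all genes tested. Libraries 1 and 2 were also the closest pair of any group by a chi-square of their counts (6.03 per degree of freedom, against 7.31 to 97.3 in the other pairs). That exceeds sampling noise, and both were kept.

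**Figure D1:**
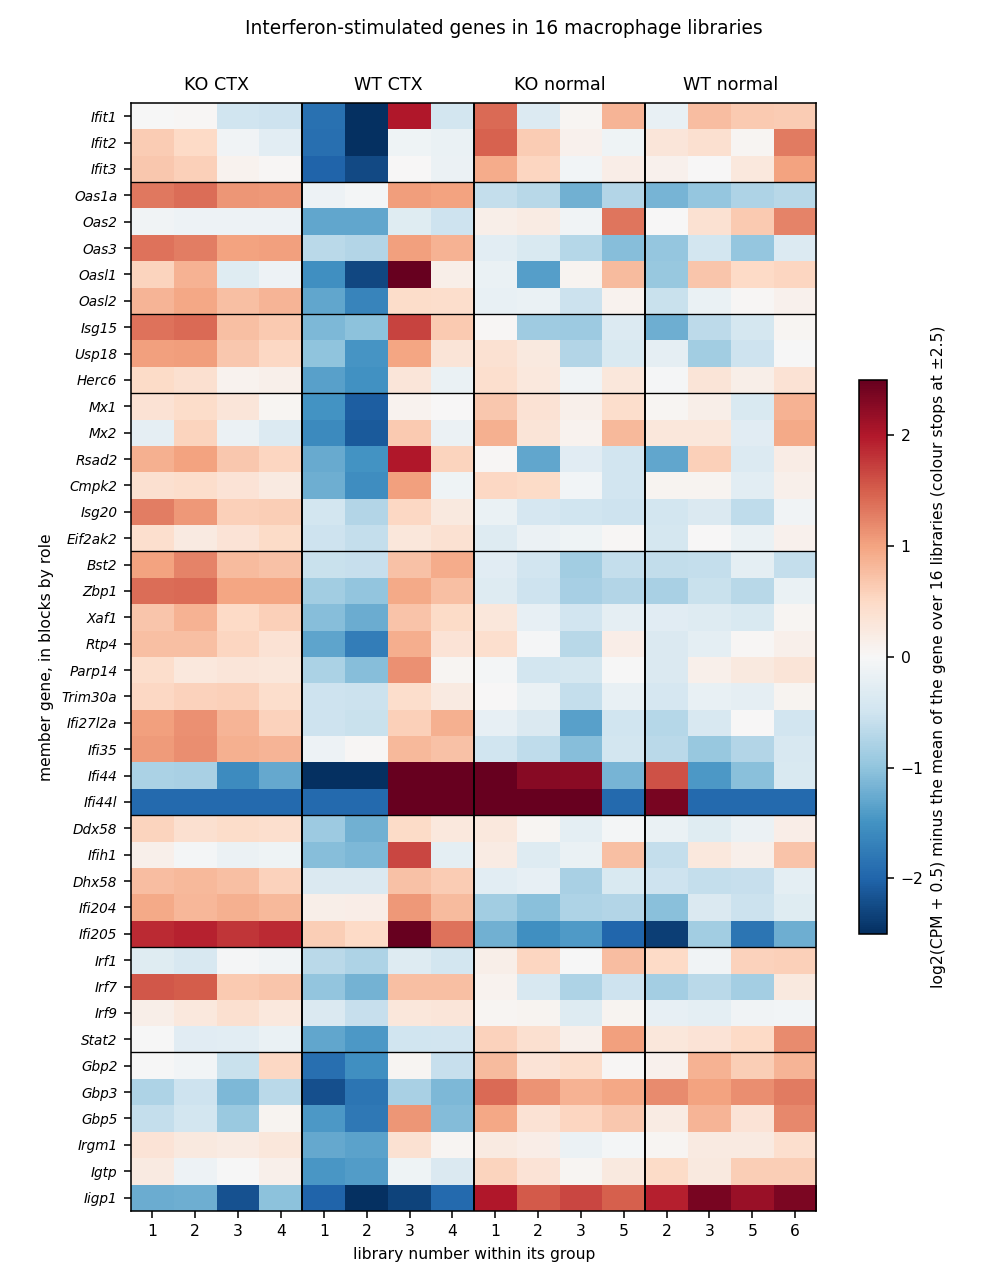
Rows are the 42 member genes in blocks by role and columns the 16 libraries by group, and colour is log2(CPM + 0.5) minus the mean of the gene over the libraries. WT CTX libraries 1 and 2 are blue in most rows (summed members 1598 and 1483 CPM), whereas WT CTX library 3 is the highest of the 16 in 11 members. No share over all genes is given for the latter.

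After Ifi44 and Ifi44l, which are described further on, Oasl1, Ifit1 and Rsad2 had the widest ranges among WT CTX libraries (4.89, 4.6 and 3.52 in log2 CPM). Oasl1, a member of the oligoadenylate synthetase family known in mice to limit Irf7 translation, had 137, 170, 74.9 and 85.4 CPM in KO CTX libraries, against 31.8, 18.7, 558 and 103 CPM in WT CTX libraries. Ifit1, which binds viral RNA that lacks a host cap, had 35.6, 36.6, 25.2 and 24.7 CPM in KO CTX and 9.4, 5.8, 144 and 25.8 CPM in WT CTX libraries. Rsad2, which encodes the antiviral enzyme viperin, had 276, 301, 237 and 215 CPM in KO CTX and 62.1, 52.3, 600 and 220 CPM in WT CTX libraries. In all 3, the KO libraries lay above WT libraries 1 and 2 and below WT library 3. Gbp5, a guanylate-binding protein that promotes inflammasome activation and the next in range among members with a mean log2 CPM of at least 3 (3.01), had 10.8, 11.8, 8.44 and 17.3 CPM in KO CTX and 5.83, 4.4, 36.3 and 7.53 CPM in WT CTX libraries. Library 3 was the highest WT CTX library in 35 members and library 4 in the other 7, and no share over all genes is given for this. All 4 KO CTX libraries were above WT CTX libraries 1 and 2 in 40 of 42 members, against 11.4% of all genes, and the exceptions were Ifi44l and Iigp1. Among KO CTX libraries the members varied about as much as all genes (median SD 0.18 against 0.17). KO CTX libraries 1 and 2 were both above 3 and 4 in 24 of 42 members, against 23.8% of all genes. They were both below in 1 member, Irf1, against 19.8% of all genes. Irf7 had 611 and 596 CPM in KO CTX libraries 1 and 2, against 328 and 339 CPM in 3 and 4.

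**Figure D2:**
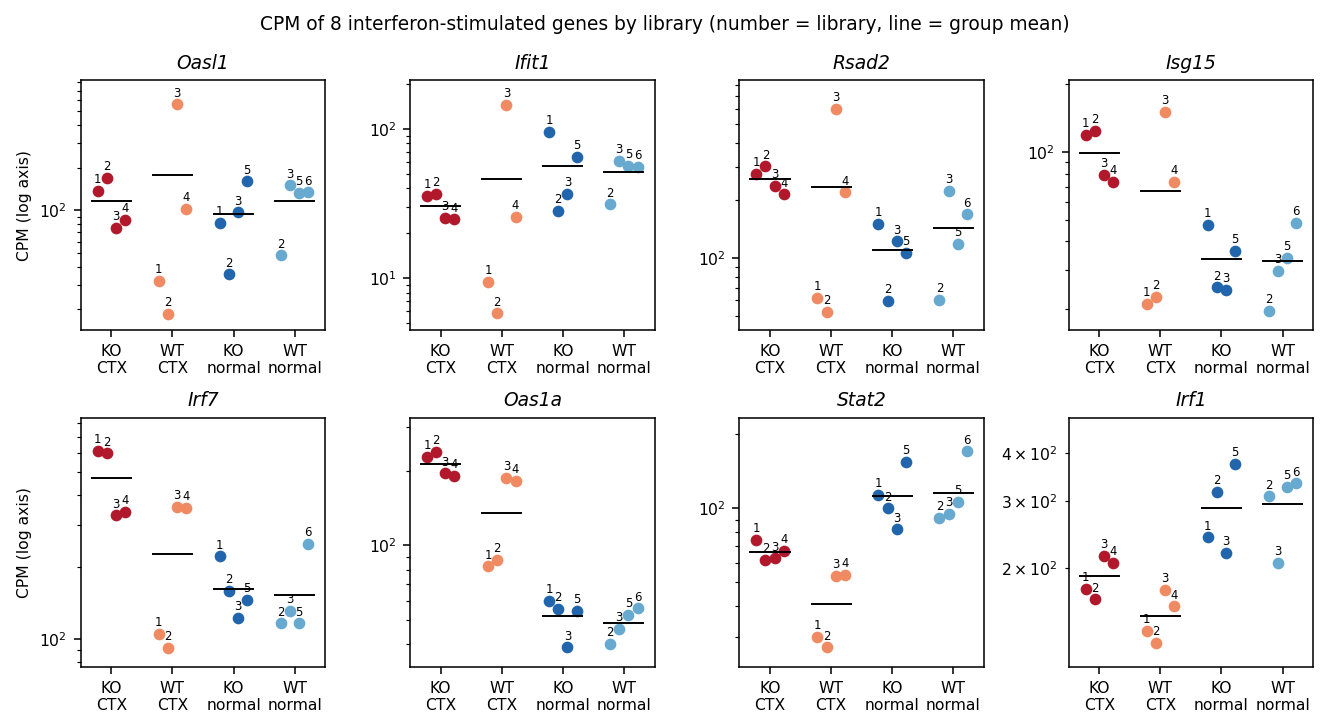
Each panel gives the CPM of 1 gene on a log axis, with a numbered point per library and a line at the group mean. Among WT CTX libraries, 3 and 4 are above 1 and 2 in each of the 8 genes, and the distance is large for Oasl1 (558 and 103 CPM, against 31.8 and 18.7 CPM) and small for Irf1 (176 and 159 CPM, against 137 and 128 CPM).

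Summed markers of other cells took several orders over these libraries. Over WT CTX libraries 1 to 4 the 9 plasmacytoid dendritic cell markers, whose cells make much type I interferon, summed to 372, 347, 401 and 486 CPM. That list holds Bst2, which is itself a member and had 64.9, 64.1, 158 and 181 CPM, and the other 8 markers summed to 307, 283, 243 and 304 CPM, with libraries 3 and 4 not above libraries 1 and 2. Its defining marker Siglech had 0.736, 0.279, 0 and 1.43 CPM. Libraries 3 and 4 were the higher in the sums of 6 fibroblast markers (76, 79.5, 93.2 and 99.9 CPM) and of 8 endothelial markers (67.6, 64.6, 78.3 and 68.4 CPM). They were the lower for T and NK cell markers, 12 of them in the table (7.25, 5.02, 1.73 and 3.35 CPM), and for 8 muscle fibre markers (5.1, 3.96, 3.52 and 2.58 CPM). The sums of dendritic cell markers (152, 127, 140 and 134 CPM), neutrophil markers (488, 743, 901 and 631 CPM) and macrophage markers (22500, 24000, 25400 and 22200 CPM) took neither order. Most of the macrophage sum was Lyz2 (14300, 15800, 15900 and 13500 CPM), so it says little of the other macrophage markers. Of these, Adgre1 (667, 617, 1250 and 842 CPM), Fcgr1, Mertk, C1qa, C1qb and Aif1 were higher in libraries 3 and 4. Csf1r was lower there, and Cd68 and Itgam, like Lyz2, took neither order. The part of these cell types in the split was not tested. Of a further 45 interferon-induced genes that are no members, 39 had libraries 3 and 4 above libraries 1 and 2. The 2-fold rule was met by 14, among them Cxcl11 (0, 0, 0.664 and 0 CPM), which met it only because 0 against 0 passes. Among other genes, 252 of 13528 (1.86%) met the same rule, and no share is given for the order alone.

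The interferon genes themselves were little read. Of 12 ligand genes, only Ifnb1 and Ifng passed the filter. Ifnb1, which encodes interferon beta, had 1.5, 1.58, 1.01 and 0.935 CPM in KO CTX, 1.36, 0.669, 40.7 and 2.09 CPM in WT CTX, 19.6, 3.77, 4.31 and 10.1 CPM in KO normal and 4.22, 9.46, 6.79 and 6.62 CPM in WT normal libraries. WT CTX library 3 was thus the highest of all, and the other 7 CTX libraries were below every normal library. Ifnb1 fell with injury in KO (log2 fold change -2.91, SE 1.02, edgeR adjusted p = 0.0175) and was not called in WT (0.71, SE 0.89, adjusted p = 0.481). Cxcl10, an interferon-induced chemokine, also peaked in WT CTX library 3, with 61.2, 79.5, 45.7 and 46.7 CPM in KO CTX and 30.4, 22.1, 323 and 45.7 CPM in WT CTX libraries.

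Injury was followed by change in both directions: 3 of 5 sensors rose in both genotypes, and 4 of 6 GTPases fell in WT and 2 of 6 in KO. In KO macrophages, CTX-injected against normal muscle gave 16 members higher and 6 lower (edgeR quasi-likelihood test, Benjamini-Hochberg adjusted p under 0.05), whereas 33.3% of all genes were higher and 40.2% lower. In WT macrophages, 7 members were higher and 10 lower, against 33.3% and 39.4% of all genes. With all 16 libraries the share of members called was thus below the background in both directions in WT (16.7% and 23.8%), and in KO near it for rises (38.1%) and below it for falls (14.3%). This reading differed between settings, and the cause of the differences was not tested. With only the groups compared in each fit, 21 members (50%) were higher in KO, against 33.1% of all genes. In KO 8 (19%) were lower, against 39.3%. In WT that setting gave 6 higher (14.3%, against 33.4%) and 9 lower (21.4%, against 38.6%). With WT CTX libraries 1 and 2 both left out, a setting chosen after seeing the data, 24 members (57.1%) were higher in WT against 29% of all genes and 7 (16.7%) lower against 33.5%, and in KO 22 members (52.4%) were higher against 31.7%. The median log2 fold change of the members was 0.38 in KO and 0.08 in WT, beside -0.16 and -0.15 over all genes. With library totals in place of TMM factors the medians were -0.22 and -0.54 for the members and -0.77 in both for all genes, and calls became 9 members higher and 11 lower in KO (21.4% and 26.2%, against 14.1% and 61.5% of all genes) and 4 higher and 18 lower in WT (9.52% and 42.9%, against 14.2% and 61.2%). Leaving out 1 WT CTX library moved the WT calls to 11 higher and 7 lower (library 1), 12 and 8 (library 2), 5 and 18 (library 3) or 5 and 12 (library 4). In these fits 31.6% to 32.1% of all genes were higher and 37% to 37.5% lower. The 18 lower without library 3 were 42.9% of the members, against 37.5% of all genes. Among the 13 libraries without Xist the calls in KO were 15 higher (35.7%) and 6 lower (14.3%), against 32.2% and 39% of all genes. In WT they were 5 higher (11.9%) and 7 lower (16.7%), against 29.7% and 35.2%.

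Ifi205, a member of the PYHIN family of nucleic-acid sensors, rose most in both genotypes. It had 183, 192, 173 and 182 CPM in KO CTX, 77.1, 70.7, 289 and 128 CPM in WT CTX, 21.3, 16.9, 18.3 and 12.2 CPM in KO normal and 9.37, 27, 13.8 and 21 CPM in WT normal libraries. No CTX library was as low as any normal one, and the log2 fold change was 3.41 (SE 0.41, adjusted p = 1.99e-06) in KO and 2.99 (SE 0.4, adjusted p = 6.88e-06) in WT. Ifi204, of the same family, had 330, 303, 315 and 302 CPM in KO CTX, 188, 192, 365 and 295 CPM in WT CTX, 93.5, 82.5, 99.4 and 103 CPM in KO normal and 82.7, 133, 117 and 139 CPM in WT normal libraries. Its CTX and normal groups did not overlap in either genotype, with log2 fold changes of 1.72 (SE 0.2, adjusted p = 1.28e-06) in KO and 1.14 (SE 0.2, adjusted p = 7.98e-05) in WT. Of the cytosolic RNA sensors, Dhx58, the regulator LGP2, rose in both (1.13 in KO and 0.73 in WT, adjusted p = 0.000231 and 0.00683), and Ddx58 (RIG-I) and Ifih1 (MDA5) were not called, at 0.45 and -0.22 in KO and -0.06 and 0.11 in WT.

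Of the OAS genes, whose enzymes make the signal that activates RNase L, Oas1a and Oas3 rose and Oas2 did not. Oas1a had 227, 239, 195 and 191 CPM in KO CTX, 82.4, 87.4, 187 and 182 CPM in WT CTX, 59.9, 55.6, 38.9 and 54.4 CPM in KO normal and 40.2, 46.1, 52.6 and 55.8 CPM in WT normal libraries. Even the low WT CTX libraries were above every normal library, and the change was 2.03 (SE 0.24, adjusted p = 1.88e-06) in KO and 1.47 (SE 0.24, adjusted p = 4.61e-05) in WT. Oas3 had 150, 142, 118 and 120 CPM in KO CTX, 36.6, 35, 120 and 107 CPM in WT CTX, 48.4, 44.6, 35.3 and 27.7 CPM in KO normal and 29.5, 42.5, 29.6 and 46.2 CPM in WT normal libraries. Its KO groups did not overlap (1.76, SE 0.34, adjusted p = 0.000233), while in WT, libraries 1 and 2 lay within the normal range (1.02, SE 0.34, adjusted p = 0.0128). Oas2 had 49.5, 47.8, 48 and 47.9 CPM in KO CTX, 20.9, 21.1, 42.7 and 36.7 CPM in WT CTX, 58.1, 60.3, 49.6 and 134 CPM in KO normal and 52.6, 68.2, 82.7 and 125 CPM in WT normal libraries. All CTX libraries were below all normal ones of their genotype, and the fall was called in WT (-1.44, SE 0.32, adjusted p = 0.000828) and not in KO (-0.64, SE 0.32, adjusted p = 0.077). Oasl2 rose in KO (1.04, SE 0.36, adjusted p = 0.0164) and stood at -0.09 in WT (adjusted p = 0.826).

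Among other effectors, Zbp1, a sensor of left-handed nucleic acid that triggers cell death, had 192, 193, 144 and 143 CPM in KO CTX, 39.4, 36.1, 139 and 122 CPM in WT CTX, 57.8, 50.1, 40.3 and 43.5 CPM in KO normal and 40.9, 49.1, 44.2 and 64.3 CPM in WT normal libraries. WT CTX libraries 1 and 2 were below all normal WT libraries and libraries 3 and 4 above them. The rise was called in KO (1.81, SE 0.35, adjusted p = 0.000229) and not in WT (0.76, SE 0.34, adjusted p = 0.0562). Ifi35 had 141, 152, 125 and 122 CPM in KO CTX, 62.1, 68.7, 119 and 113 CPM in WT CTX, 47.8, 43.4, 32.2 and 49.2 CPM in KO normal and 41.9, 34.7, 40.6 and 50.8 CPM in WT normal libraries. It rose without overlap in both genotypes (1.64, SE 0.2, adjusted p = 2.22e-06 in KO, and 1.11, SE 0.2, adjusted p = 0.000113 in WT). Bst2, which encodes tetherin, a protein that holds budding virions at the cell surface, had 192, 225, 165 and 159 CPM in KO CTX, 64.9, 64.1, 158 and 181 CPM in WT CTX, 78.2, 68.8, 51.7 and 63 CPM in KO normal and 61.9, 63.1, 80.3 and 63.1 CPM in WT normal libraries. Only WT CTX libraries 3 and 4 were clear of the WT normal range (log2 fold change 1.5, SE 0.28, adjusted p = 0.000172 in KO, and 0.8, SE 0.28, adjusted p = 0.0163 in WT). Isg15, a ubiquitin-like modifier, rose in KO (1.57, SE 0.49, adjusted p = 0.00937) and was not called in WT (1.02, SE 0.49, adjusted p = 0.07), with 119, 124, 78.7 and 73.2 CPM in KO CTX and 21.1, 22.7, 150 and 73.6 CPM in WT CTX libraries. Isg20, Xaf1, Trim30a, Ifi27l2a and Eif2ak2 were also called higher in KO and not in WT, and whether the 2 genotypes differ is tested by the interaction below. Eif2ak2, the kinase PKR, rose by 0.5 in KO, lost its call without KO CTX library 1 or 4 or KO normal library 1, and turned to -0.10 under library totals. Without WT CTX library 3 or 4 the WT calls of Bst2 and Oas3 were lost, and the KO call of Xaf1 was lost without KO CTX library 1, 2 or 4 or KO normal library 2, 3 or 5.

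Falls of IFIT genes and of the ISG15 ligase were called in WT and not in KO. Ifit2, an RNA-binding effector, had 52.3, 47.9, 31.8 and 28 CPM in KO CTX, 8.72, 4.52, 31.3 and 30 CPM in WT CTX, 94.1, 52.5, 36.4 and 31.1 CPM in KO normal and 41.4, 44.3, 35 and 83.1 CPM in WT normal libraries. All WT CTX libraries were below all WT normal ones (-1.46, SE 0.5, adjusted p = 0.0163), and the KO groups overlapped (-0.42, SE 0.49, adjusted p = 0.444). Ifit3 and Herc6, the mouse ISG15 ligase, were likewise called lower in WT (-1.2 and -0.7, adjusted p = 0.0205 and 0.0436) and not in KO (-0.07 and 0.05, adjusted p = 0.895 and 0.877). Without WT CTX library 1 or WT normal library 6 the calls of Ifit2, Ifit3 and Herc6 were lost, and without WT CTX library 2 those of Ifit3 and Herc6. The Herc6 call was lost on leaving out any of 11 of the 16 libraries, each KO CTX library among them, and with no filter on low counts. Mx1, Mx2, Usp18, Cmpk2, Rsad2, Rtp4, Parp14, Ifit1, Oasl1 and Ifih1 were called in neither genotype.

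Of the GTPases, Iigp1 and Gbp3 fell in both genotypes. Iigp1, an immunity-related GTPase that attacks vacuoles holding parasites, had 3.34, 3.4, 1.51 and 3.95 CPM in KO CTX, 1.76, 0.223, 1.33 and 1.87 CPM in WT CTX, 36, 25.8, 28.4 and 25.2 CPM in KO normal and 34.3, 46.7, 40.1 and 45.8 CPM in WT normal libraries. No CTX library came near the normal ones, with a log2 fold change of -3.24 in KO (SE 0.33, adjusted p = 3.16e-07) and -5.01 in WT (SE 0.37, adjusted p = 1.09e-08). Gbp3 had 20.6, 24.7, 16 and 22.2 CPM in KO CTX, 7.36, 9.7, 20.1 and 16 CPM in WT CTX, 94.9, 78.4, 65.6 and 69.6 CPM in KO normal and 80.9, 71.4, 79.9 and 88.1 CPM in WT normal libraries. Its fall was called in both, at -1.89 (SE 0.23, adjusted p = 2.8e-06) in KO and -2.6 (SE 0.24, adjusted p = 1.32e-07) in WT. Gbp2 had 42, 40, 28.5 and 60.5 CPM in KO CTX, 11.1, 14.3, 43.5 and 28.3 CPM in WT CTX, 73.6, 53.9, 57.7 and 43.1 CPM in KO normal and 45.8, 77.2, 65.1 and 76.2 CPM in WT normal libraries. The WT groups did not overlap (-1.45, SE 0.34, adjusted p = 0.00134), and the KO groups did (-0.42, SE 0.34, adjusted p = 0.269). Igtp, another immunity-related GTPase, was called lower in WT (-1.23, SE 0.25, adjusted p = 0.000335) and not in KO (-0.26, adjusted p = 0.342), and Irgm1 in neither. Reads of Igtp may overlap those of its neighbour Irgm2.

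These falls came with fewer reads from most other cell types listed, and in bulk samples fewer cells of a type and less RNA per cell cannot be told apart. The T and NK cell markers summed to 4.61 to 9.97 CPM in KO CTX, 1.73 to 7.25 CPM in WT CTX, 47.5 to 121 CPM in KO normal and 31.4 to 62.8 CPM in WT normal libraries, with 12 of 12 tested markers lower in KO and 11 in WT. The dendritic cell markers summed to 92.2 to 147 CPM in KO CTX, 127 to 152 CPM in WT CTX, 607 to 942 CPM in KO normal and 469 to 623 CPM in WT normal libraries, with 7 of 8 lower in each genotype. Markers called lower were also 6 of 6 for fibroblasts in KO and 5 of 6 in WT, 7 and 6 of 8 for endothelium, 6 and 5 of 6 tested for muscle fibres, and 7 of 9 in each genotype for plasmacytoid dendritic cells. The fibroblast markers summed to 54.3 to 68.8 CPM in KO CTX, 76 to 99.9 CPM in WT CTX, 185 to 888 CPM in KO normal and 225 to 548 CPM in WT normal libraries. Neutrophil markers were called lower in 1 of 10 in KO and 6 of 10 in WT. Beside these counts, 40.2% of all genes were called lower in KO and 39.4% in WT. No marker in these lists was at 0 in every CTX library. Ifng, which lymphocytes make and which induces the GTPases, had 0.0576, 0, 0 and 0 CPM in KO CTX, 0 CPM in all WT CTX, 1.84, 1.49, 1.71 and 0.236 CPM in KO normal and 0.898, 0.903, 1.17 and 1.05 CPM in WT normal libraries. Their part in the GTPase values was not tested.

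Of the 4 transcription factors, Irf7, which amplifies type I interferon production, was called higher in KO and not in WT. Its CPM were 611, 596, 328 and 339 in KO CTX, 105, 91.9, 355 and 353 in WT CTX, 221, 159, 122 and 145 in KO normal and 116, 131, 116 and 249 in WT normal libraries. WT CTX libraries 1 and 2 were below all WT normal libraries, and 3 and 4 above them (1.53, SE 0.42, adjusted p = 0.0037 in KO, and 0.56, SE 0.41, adjusted p = 0.225 in WT). Stat2, a subunit of the ISRE-binding complex, had 74.6, 61.9, 62.6 and 67.3 CPM in KO CTX, 30.2, 27.3, 53.2 and 53.5 CPM in WT CTX, 113, 99.8, 82 and 154 CPM in KO normal and 91.2, 95, 106 and 170 CPM in WT normal libraries. Each CTX group lay wholly below its normal group (-0.75, SE 0.25, adjusted p = 0.0117 in KO, and -1.5, SE 0.25, adjusted p = 6.22e-05 in WT). Irf1, a factor that interferon gamma induces, had 177, 166, 215 and 207 CPM in KO CTX, 137, 128, 176 and 159 CPM in WT CTX, 241, 317, 219 and 375 CPM in KO normal and 308, 207, 327 and 333 CPM in WT normal libraries. It fell in both (-0.59, SE 0.18, adjusted p = 0.00789 in KO, and -0.97, SE 0.18, adjusted p = 0.000179 in WT), and neither pair of groups overlapped. Irf9, the DNA-binding subunit of the complex, had 94.5, 103, 114 and 103 CPM in KO CTX, 66.8, 57.5, 105 and 106 CPM in WT CTX, 88.8, 90.5, 68.5 and 90.2 CPM in KO normal and 74.9, 72.4, 80.6 and 82.3 CPM in WT normal libraries, and was called in neither comparison (0.29 in KO and 0.11 in WT, adjusted p = 0.119 and 0.556).

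**Figure D3:**
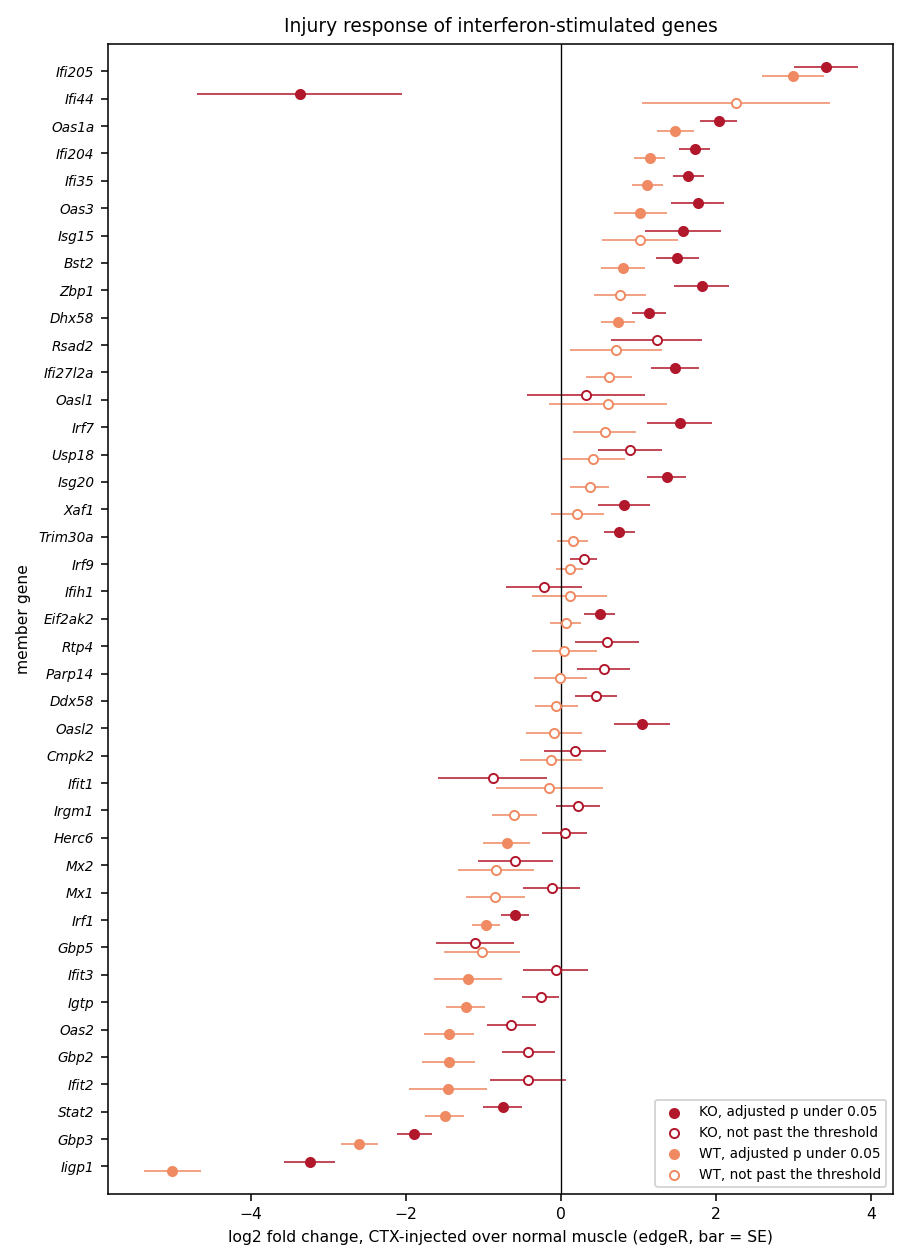
Log2 fold change of each member except Ifi44l in CTX-injected over normal muscle, with KO in red above WT in orange, SE bars, and filled points for adjusted p under 0.05 by edgeR. Ifi205 lies at 3.41 in KO and 2.99 in WT, and Iigp1 at -3.24 in KO and -5.01 in WT.

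Upstream of the members, 5 of 10 receptor and kinase genes were higher after injury and 3 lower in each genotype, beside 33.3% of all genes higher and 40.2% (KO) or 39.4% (WT) lower. Ifnar1 and Ifnar2, the chains of the type I interferon receptor, rose by 1.55 and 1.22 in KO and 1.43 and 1.29 in WT (adjusted p = 9.98e-07, 5.52e-07, 2.32e-06 and 3.18e-07). Of the chains of the interferon gamma receptor, Ifngr1 fell by 1.04 in KO and 0.81 in WT (adjusted p = 5.97e-08 and 7.53e-07), and Ifngr2 rose by 0.97 in KO and 0.96 in WT (adjusted p = 3.08e-06 and 3.73e-06). Tyk2 fell by 0.84 and 0.80. Of 15 genes that lead to interferon production, 6 were higher and 6 lower in KO, and 5 and 5 in WT. Ikbke, a kinase that activates IRF3 and IRF7, rose by 3.87 in KO and 3.27 in WT, and Tlr3, a receptor of double-stranded RNA, fell by 2.15 and 2.36. Of 8 negative regulators, 3 were higher and 2 lower in KO, and 2 and 3 in WT.

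KO against WT macrophages of normal muscle showed no member past the threshold. Called members were 0 of 42 by edgeR, where 0% of all genes were called in either direction, and limma and DESeq2 also called 0. No member reached an unadjusted p under 0.05, against 390 of 13649 genes, and the median log2 fold change was -0.03. In 0 members were all KO libraries above or below all WT libraries, against 0.674% and 0.425% of all genes. The smallest p belonged to Iigp1 (-0.53, SE 0.28, adjusted p = 0.991), followed by Ifi204 (-0.32, SE 0.19, adjusted p = 0.991) and Ifi44 (1.94, SE 1.19, adjusted p = 0.991). KO and WT libraries overlapped in each.

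In CTX-injected muscle, no member passed the threshold between libraries labelled KO and WT, although most values lay higher in those labelled KO. Members called were 0 of 42, while 0.00733% of all genes were higher and 0% lower. The median log2 fold change was 0.64, against -0.02 over all genes, and 36 of 42 values were positive, against 44.3% of all genes. In edgeR 24 members had an unadjusted p under 0.05 (910 of 13649 genes), among them Ifi44 and Ifi44l, which were lower in KO. In 8 members (Ifit3, Oas1a, Oas2, Oasl2, Isg20, Zbp1, Ifi35 and Stat2) every KO library was above every WT library, against 1.83% of all genes, and in 0 members was every KO library below (3.87%). Each of these had an exact two-sided permutation p of 0.0286, the smallest that 4 against 4 libraries can give. Isg20, an RNA exonuclease, had the smallest p, with 34.4, 29.8, 21 and 21.5 CPM in KO CTX and 9.91, 8.08, 20.1 and 16.5 CPM in WT CTX libraries (0.97, SE 0.24, adjusted p = 0.311). Iigp1 came next (1.24, SE 0.38, adjusted p = 0.476), where 1 KO library lay within the WT range. Igtp had 27.8, 21.7, 23.6 and 25.9 CPM in KO CTX and 8.33, 8.7, 22.2 and 18.5 CPM in WT CTX libraries (0.78, SE 0.25, adjusted p = 0.51). WT library 3 lay within the KO range.

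The size of this difference depended on which WT libraries were in it. The median over the members was 0.44 without WT CTX library 1, 0.44 without library 2, 1.05 without library 3 and 0.79 without library 4. With libraries 1 and 2 counted as 1 sample it was 0.43, and with both left out it was 0.13 with 0 members called. Both of these settings were chosen after seeing the data. A fit with library quality weights (limma voom), which gave WT CTX libraries 1 to 4 weights of 2.19, 1.86, 0.85 and 1.07, called 18 members higher (42.9%) and 0 lower, against 0.484% and 0.337% of all genes, and put the median at 1.13. DESeq2's Wald test called 1 higher, Isg20 (adjusted p = 0.0484), and 1 lower, Ifi44l (2.38% each, against 0.122% and 0.187% of all genes). The part of libraries 1 and 2 in the difference was not tested beyond these fits.

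**Figure D4:**
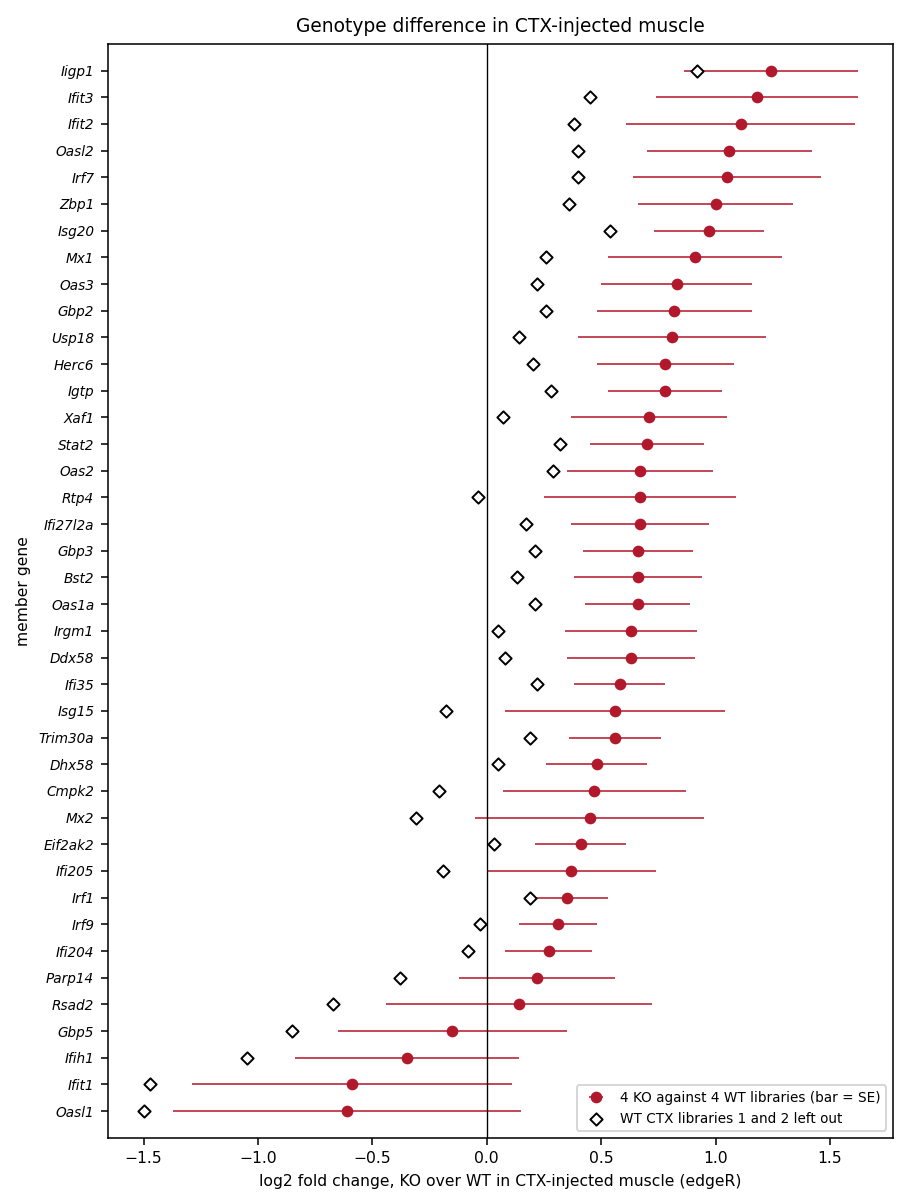
Log2 fold change of KO over WT in CTX-injected muscle for 40 members, without Ifi44 and Ifi44l, as red points with SE bars for all libraries and as open diamonds without WT CTX libraries 1 and 2. The median over all 42 members is 0.64 in the first and 0.13 in the second.

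The difference between the genotype effects in CTX-injected and normal muscle was not past the threshold in any member. Called members were 0 of 42, with 0% of all genes called in either direction, and 12 members had an unadjusted p under 0.05 (646 of 13649 genes). The smallest p was that of Iigp1 (difference of log2 fold changes 1.77, SE 0.47, adjusted p = 0.341), which DESeq2 called (adjusted p = 0.0451), followed by Ifi44 (-5.62, SE 1.78, adjusted p = 0.61) and Ifi44l (adjusted p = 0.657). The median was 0.58, against -0.01 over all genes, and 36 values were positive, against 48.8% of all genes. These 5 comparisons share libraries with each other and are not independent.

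Ifi44 and Ifi44l, interferon-induced genes that lie side by side on the minus strand of chromosome 3 (151730922 to 151749960 and 151758737 to 151762892, GRCm38), followed neither genotype nor injury. Ifi44l had 0 reads in 10 libraries and 243 to 603 counts in the other 6, which were KO normal 1, 2 and 3, WT normal 2 and WT CTX 3 and 4. Its levels in those libraries were 16.5, 13.5 and 15.1 CPM in KO normal, 9.49 CPM in WT normal and 29.2 and 33.1 CPM in WT CTX. Where it had 0 reads, a count of 0 allows up to 3 counts, 0.117 to 0.173 CPM. Ifi44 divided the libraries in the same way, with 22.7 to 80.8 CPM in the 6 and 0 to 5.35 CPM in the 10. Over all genes, only Ifi44 and Ifi44l were at least 3-fold higher in each of the 6 than in each of the 10. From the 3-count floor, the group mean of Ifi44l was at least 90.1-fold lower in KO CTX than in WT CTX. It was at least 65.2-fold lower in KO CTX than in KO normal. These bounds rest on the libraries with reads, since WT CTX libraries 1 and 2 and KO normal library 5 also had 0 reads. GENCODE tags the Ifi44l annotation with an error of the reference genome. In KO the injury comparison called Ifi44 and Ifi44l lower (adjusted p = 0.0298 and 0.0221), although KO normal library 5 lay with the CTX libraries, and the Ifi44 call was lost without any KO CTX library or without KO normal library 1.

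**Figure D5:**
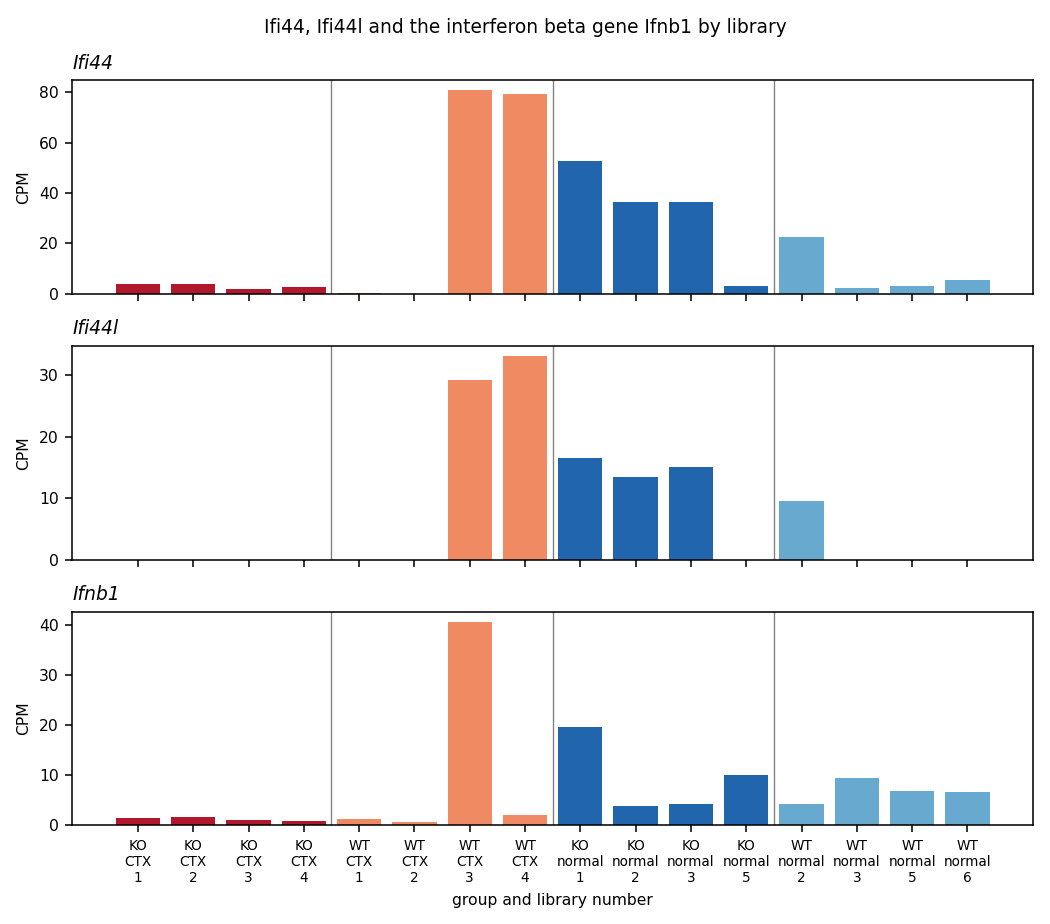
Bars give CPM from 0 in each library for Ifi44, Ifi44l and Ifnb1. Ifi44 and Ifi44l are high in the same 6 libraries, whereas Ifnb1 peaks at 40.7 CPM in WT CTX library 3.

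Several members may share reads with other genes. Oas1a, Ifit3, Ifi204, Ifi205, Trim30a and Gbp3 have close paralogues, and the sources used here do not say how reads with several mapping places were counted. Without strand, reads of Irf7 and Phrf1, Dhx58 and Dhx58os, and Irf1 and Gm17334 could not be told apart where their exons overlap, and exons of Irf9 overlap those of Rnf31 on the same strand. Mx2 is annotated as a polymorphic pseudogene.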

How the data were processed

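RNA of F4/80+ muscle macrophages was sequenced in 16 libraries of 4 groups. The authors deposited raw whole-number read counts for each gene symbol. Per the submitters' processing notes, FastQC 0.11.7, cutadapt 1.18, HISAT2 2.1.0 and featureCounts of Subread 1.6.2 were used with mm10; the sources used here name neither the annotation nor the handling of multi-mapped reads. Per the labels' protocols, RNA came from a Qiagen RNeasy Micro kit and SMART-Seq V4, which keeps no strand information. Without molecular identifiers, count limits cover counting error only. Library totals were 17051892 to 23097420.

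Genes were filtered with edgeR's filterByExpr (13649 of 24421 symbols kept; 5362 symbols had no read), scaled with TMM, and tested in edgeR 4.0.16 by quasi-likelihood (a coefficient for each of the 4 groups, all 16 libraries in the fit), with Benjamini-Hochberg adjustment over all genes and a threshold of 0.05, in R 4.3.3. CPM were computed from counts, totals and TMM factors, log2 CPM with a prior count of 2, and the SE from the fold change and F. Limma 3.58.1 and DESeq2 1.42.0 were alternatives. The members, gene lists and naming rule were chosen with earlier results of these data known. Values in every library were given for the 6 called members of largest fold change each way per injury comparison with mean log2 CPM of at least 3 in the higher group, for the 3 members of smallest p where a genotype comparison made no call, for the 4 with the widest range among WT CTX libraries with mean log2 CPM of at least 3, and for Irf1, Irf7, Irf9 and Stat2. Coordinates are from GENCODE M21 and promoters from RefSeq, on GRCm38.

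Replicate numbers are shared between groups. In normal muscle, same-numbered KO and WT libraries deviated together from their group means (correlation 0.64, 0.56 and 0.24 for numbers 2, 3 and 5). The replicate block used these numbers as pairs, a pairing that comes from the data and not the labels. Correlations of differently numbered libraries are not given, so these values do not show that the number is what the libraries share. The main edgeR fit held no pairing. In CTX-injected muscle (-0.12, -0.05, -0.08 and 0) and between injured and normal muscle (-0.05 to 0.04) same-numbered libraries did not deviate together. For 1 gene counted in the pathway lists, its own values are not reported here.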

Additional observations from a re-analysis of the deposited data

Results flagged for a closer look

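In 14 of 168 combinations of member and group (8.33%), 1 of the 4 libraries stood apart from the other 3 by Dixon's test, which chance alone gives in about 5% of groups. The test sets the gap to the nearest library against the range of the group, so small gaps in tight groups are flagged too. In KO CTX these were Oas2 in library 1 (49.5 CPM, nearest 48 CPM), Mx2 in library 2 (10.1 CPM, nearest 5.93 CPM) and Parp14 in library 1 (191 CPM, nearest 174 CPM), each the highest. In WT CTX, library 3 was far above the others for Ifit1 (144 CPM), Oasl1 (558 CPM), Ifih1 (164 CPM) and Gbp5 (36.3 CPM). In KO normal, Oas2 was high in library 5 (134 CPM) and Irf9 low in library 3 (68.5 CPM). In WT normal, library 2 was low for Oasl1 (48.2 CPM) and high for Ifi44 (22.7 CPM) and Ifi44l (9.49 CPM), library 5 was high for Bst2 (80.3 CPM), and library 6 for Irf7 (249 CPM).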

How the results depend on the processing

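No alternative added or removed a genotype call in normal muscle. In CTX-injected muscle, KO over WT, DESeq2's Wald test called 1 member higher and 1 lower and limma voom with quality weights 18 higher. For the interaction, DESeq2 called 1 higher and 1 lower (2.38% each, against 0.0666% and 0.296% of all genes). For CTX over normal in KO, library totals gave 9 higher and 11 lower, and Eif2ak2 turned to -0.1. A fit of only the groups compared gave 21 higher (50%) and 8 lower (19%), against 33.1% and 39.3% of all genes. For CTX over normal in WT, library totals gave 4 higher and 18 lower. Voom gave 4 higher (9.52%) and 15 lower (35.7%), against 34.5% and 40% of all genes. WT CTX libraries 1 and 2 counted as 1 sample gave 11 higher (26.2%) and 8 lower (19%), against 32.3% and 37.2%. Both left out gave 24 higher (57.1%, 7 of the 24 called with all libraries) and 7 lower (16.7%), against 29% and 33.5%. Leaving out 1 library at a time gave 5 to 12 higher and 7 to 18 lower in WT. Over all genes, 31.5% to 33.2% were then higher and 37% to 40.3% lower. The cause of these moves was not tested. Leaving out libraries lowers their number and also changes the estimate of each gene's spread, which all groups in a fit share. Over the 42 members, 5 comparisons and all alternatives, 5425 of 5625 values stayed on their side of the threshold, 68 lost a call, 131 gained one and 1 called value turned (Eif2ak2 in KO). Of the gains, 20 were for KO over WT in CTX-injected muscle, 66 for injury in WT and 43 for injury in KO.

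With the replicate block, calls in the injury comparison of WT were 5 higher (11.9%) and 8 lower (19%), against 31.4% and 34.9% of all genes. In KO they were 16 higher (38.1%) and 6 lower (14.3%), against 33% and 38.2%. Both genotype comparisons and the interaction had 0. The block changed the calls of Bst2, Oas3, Herc6 and Ifit3 in WT, all lost, and in KO that of Xaf1 was lost and Rsad2 gained one. Outside normal muscle, same-numbered libraries did not deviate together, so the block has no support there and is given as a check only. Depth limits Ifng, which was at or near 0 CPM in every CTX library. Ifi44l had 0 reads in 10 libraries and 243 or more in the other 6, and Ifnb1 was at 0.669 CPM or more in every library.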
